A study of Mus musculus with 41 samples.

Results

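The intestinal epithelium of E13.5 mouse embryos was compared with that of E11.5 wild-type embryos, both sorted as EpCAM+ cells (EpCAM is a surface adhesion protein of epithelium). The members are the 4 libraries titled as EpCAM+ E13.5 intestinal epithelium, which carry no genotype in their titles, and the 3 libraries titled as wild-type EpCAM+ E11.5 intestinal epithelium. They are 7 of the 41 libraries of the series. A second pair of groups, the Lgr5-EGFP+EpCAM+ cells of E13.5 embryos (4 libraries) and the Lgr5+EpCAM+ cells of E11.5 Id2KO embryos (3 libraries), shares no library with the first. In that pair the Id2 knockout and the stage differ together, and the E13.5 titles give no genotype. Other groups set beside these are E11.5 Id2KO EpCAM+ epithelium (3 libraries), E11.5 wild-type mesenchyme (3 libraries) and Lgr5+ intestinal stem cells of postnatal day 60, as 4 libraries titled adult Lgr5-ISCs with no genotype or segment and 6 wild-type libraries of anterior, middle and posterior segments (2 each). Per the labels all of these came from small intestine of a mixed C57BL/6 CD1 background, 250 sorted cells were lysed per library, and an embryonic library stands for a single embryo at E11.5 but for a pool of 6 to 12 embryos at E13.5. Pooling averages over embryos, so the spread between E13.5 libraries does not measure the spread between embryos.

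Between these days the gut tube is lined by a layer of dividing progenitors, and villi have not yet formed. The cells later turn into absorptive enterocytes with a brush border of enzymes and transporters, secretory cells, and Lgr5+ stem cells in the intervillus regions. Wnt signalling is tuned at the receptor: R-spondins bind LGR4, LGR5 or LGR6 and thereby keep the ligases RNF43 and ZNRF3 from removing Frizzled receptors from the cell surface. Sp5 is a transcription factor gene that responds directly to Wnt in many tissues, and Anpep encodes aminopeptidase N, a brush border enzyme.

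The promoters of 3 of the 4 genes chosen to mark the change, Lgr4, Sp5 and Anpep, are shown because the description of the change starts from these genes; the table used holds none for Lgr5. The sequences are the 250 bases before the transcription start from RefSeq (GRCm38.p6, a later build than the mm9 of the counts). They are printed 5′ to 3′ on the gene's strand, and capitals mark matches on either strand to CTTTGAT (the TCF/LEF motif of Wnt response), GTTAAT (HNF1) or TTTATG (CDX).
Sp5, chr2:70474673-70474922, plus strand: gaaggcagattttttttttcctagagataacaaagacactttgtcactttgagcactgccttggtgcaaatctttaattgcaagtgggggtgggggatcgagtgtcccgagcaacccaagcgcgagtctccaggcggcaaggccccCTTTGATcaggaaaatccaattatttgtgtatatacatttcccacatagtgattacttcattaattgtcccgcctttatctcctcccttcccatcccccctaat
Lgr4, chr2:109917397-109917646, plus strand: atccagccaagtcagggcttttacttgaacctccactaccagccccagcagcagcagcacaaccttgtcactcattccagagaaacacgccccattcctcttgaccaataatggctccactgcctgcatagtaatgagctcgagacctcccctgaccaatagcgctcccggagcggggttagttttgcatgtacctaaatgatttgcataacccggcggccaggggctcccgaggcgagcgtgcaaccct
Anpep, chr7:79848211-79848460, minus strand: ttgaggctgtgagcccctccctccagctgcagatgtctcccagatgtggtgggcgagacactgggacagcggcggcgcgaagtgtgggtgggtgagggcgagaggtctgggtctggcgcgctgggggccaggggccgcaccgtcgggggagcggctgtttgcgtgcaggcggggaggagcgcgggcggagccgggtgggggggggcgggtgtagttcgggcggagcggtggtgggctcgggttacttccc
Sp5 held 1 match to the TCF/LEF letters, found in 3.2% of 32851 promoter windows, and Lgr4 and Anpep held none of the 3 motifs. HNF1 letters occurred in 6.4% and CDX letters in 10.8% of the windows. None of the 3 motifs contains another, and these matches describe letters only.

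Counts in genes came to 29997416 to 37260883 per library at E13.5 and 31915205 to 34723941 at E11.5 wild type. In the Lgr5+ pair Id2, the targeted gene, had 3105 ± 332 CPM at E13.5 and 132 ± 25.5 CPM in the Id2KO libraries (SD, n = 4 and 3). The stages also differed in library traits. Genes rich in G and C were lower relative to the rest in every E13.5 library than in every E11.5 library. The GC contrast is the median log2 deviation from the all-library mean of genes over 58% GC minus that of genes up to 42% GC. It was -1.3 to -0.64 in the E13.5 EpCAM+ libraries and 0.22 to 0.34 in the E11.5 wild-type EpCAM+ libraries. The adult groups split in the same way. The contrast was -0.97 to -0.6 in the 4 adult Lgr5-ISC libraries (Lgr5+ intestinal stem cells, postnatal day 60). In the 6 adult wild-type Lgr5-ISC libraries it was 0.88 to 1.07 in anterior, 0.57 to 0.68 in middle and 0.35 to 0.5 in posterior intestine. All 10 are titled as Lgr5-ISCs and are of one age, but the first 4 carry no genotype or segment. A difference of genotype or segment between the adult groups cannot be told apart from this library trait. Single widely expressed genes differed between these adult groups as well. Taf10, a subunit of the general transcription factor TFIID, had 0.805, 1.43, 1.13 and 1.28 CPM at E13.5, against 118, 119 and 152 CPM at E11.5, and its log2 difference between those adult groups was -4.45. Actb, the cytoplasmic actin gene, had 10564, 11495, 20683 and 19062 CPM at E13.5, against 2855, 2379 and 2335 CPM at E11.5, and was also higher in the first adult group, by 4.63 on the log2 scale. These 2 genes were picked after their values were seen, and not all such genes moved alike: Atp5a1, an ATP synthase subunit gene, had 0.79 for the stages and -0.97 for the adult groups on the log2 scale. Stage and this library trait cannot be told apart in the embryonic libraries. For many genes the stage difference is therefore given beside the adult difference (log2, adult Lgr5-ISC libraries over the mean of the 3 adult wild-type segments), and for some also the stage difference minus the adult difference with its own test. Each of the 3 E11.5 wild-type libraries held both Xist (251 to 575 CPM) and the Y-linked Ddx3y (18 to 25.8 CPM), although the labels give single embryos. The pooled E13.5 libraries had 136 to 223 CPM of Xist and 82.1 to 158 CPM of Ddx3y.

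**Figure D1:**
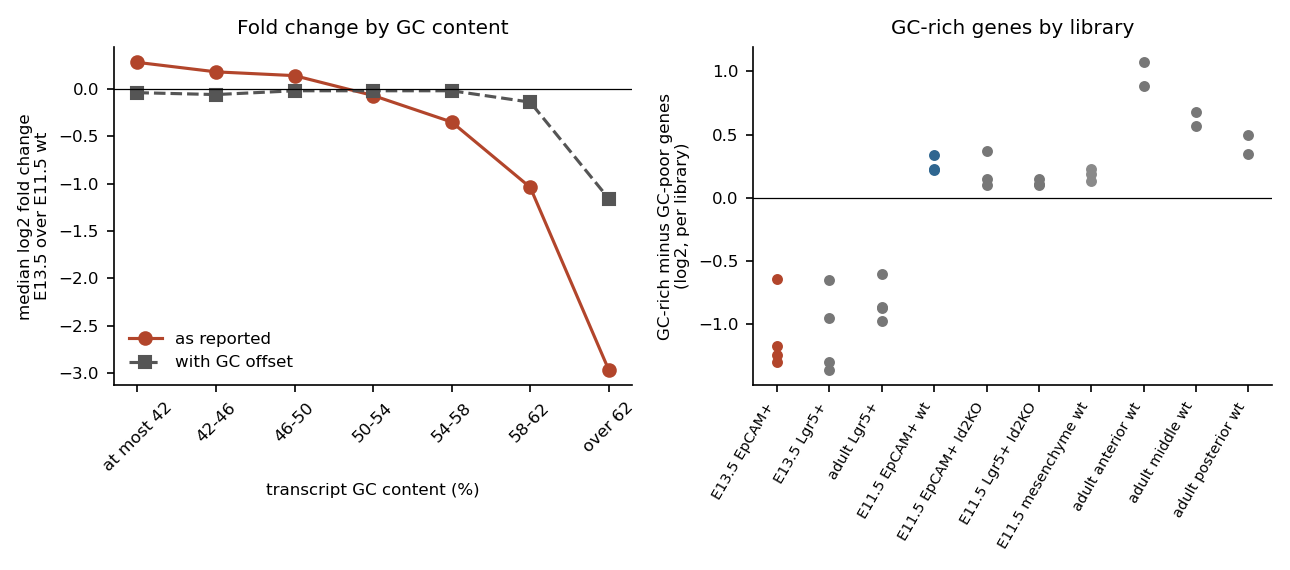
Left, median log2 fold change of E13.5 over E11.5 wild-type EpCAM+ cells (y) for genes grouped by transcript GC content in % (x). Circles are as fitted and squares are with a per-library GC offset. As fitted, the median was -2.97 above 62% GC and 0.28 at 42% GC or less. With the offset it was -1.16 and -0.04. Right, the GC contrast of each library (y, log2) by group (x): E13.5 and adult Lgr5+ libraries lie below 0, and the E11.5 and adult wild-type segment libraries above it.

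Over all genes, 2791 of 14467 tested genes were higher and 3055 were lower at E13.5, which is 19.3% and 21.1% (40.4% in either direction; adjusted p under 0.05, edgeR quasi-likelihood test with Benjamini-Hochberg adjustment). The median log2 fold change over all tested genes was -0.04. Each count of list members called below is to be read beside the shares of 19.3% higher and 21.1% lower. With a per-library offset for GC content 38.6% of 14339 genes were called (18.2% higher, 20.4% lower), and 2221 of the higher and 2530 of the lower genes were called in the same direction by both. Libraries of one stage correlated at 0.967 to 0.976 in log2 CPM over genes, and libraries of different stages at 0.860 to 0.876. In the Lgr5+ pair of groups 40.9% of 14274 genes were called (2834 or 19.9% higher, 3010 or 21.1% lower). Of the 2791 genes higher in EpCAM+ cells 1995 were also higher in Lgr5+ cells (71.5% of that list and 70.4% of the Lgr5+ list). In both, 2116 were lower (69.3% and 70.3%). The Lgr5+ pair had the same library trait, with a GC contrast of -1.36 to -0.65 at E13.5 and 0.1 to 0.15 at E11.5 Id2KO. The part of that trait in the overlap was not tested. Called in opposite directions were 17 genes higher and 19 genes lower in EpCAM+ cells, and Id2 was 1 of the 19.

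Between the 2 sets of adult libraries 56.6% of 13385 genes were called (30.6% higher, 26.0% lower in the adult Lgr5-ISC group). Of the genes higher at E13.5, 50.8% (1419) were also higher in that adult group and 439 were lower. Of those lower at E13.5, 41.3% (1262) were also lower there and 332 were higher. Across 12564 genes in both fits the 2 differences correlated with Pearson r = 0.37 and Spearman rho = 0.33 (a description across genes, which are not independent replicates). Of the genes higher at E13.5, 1118 (40.1%) exceeded the adult difference in a test of the difference itself, as did 963 (31.5%) of those lower. In that test 42.3% of 12564 genes were called, 18.7% above and 23.6% below the adult difference. Both adult comparisons tested 2724 of the genes higher and 2512 of the genes lower at E13.5. The shares of 50.8%, 41.3%, 40.1% and 31.5% are of the full lists. Genes not tested therefore reduce them, and more so for the genes lower at E13.5.

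**Figure D2:**
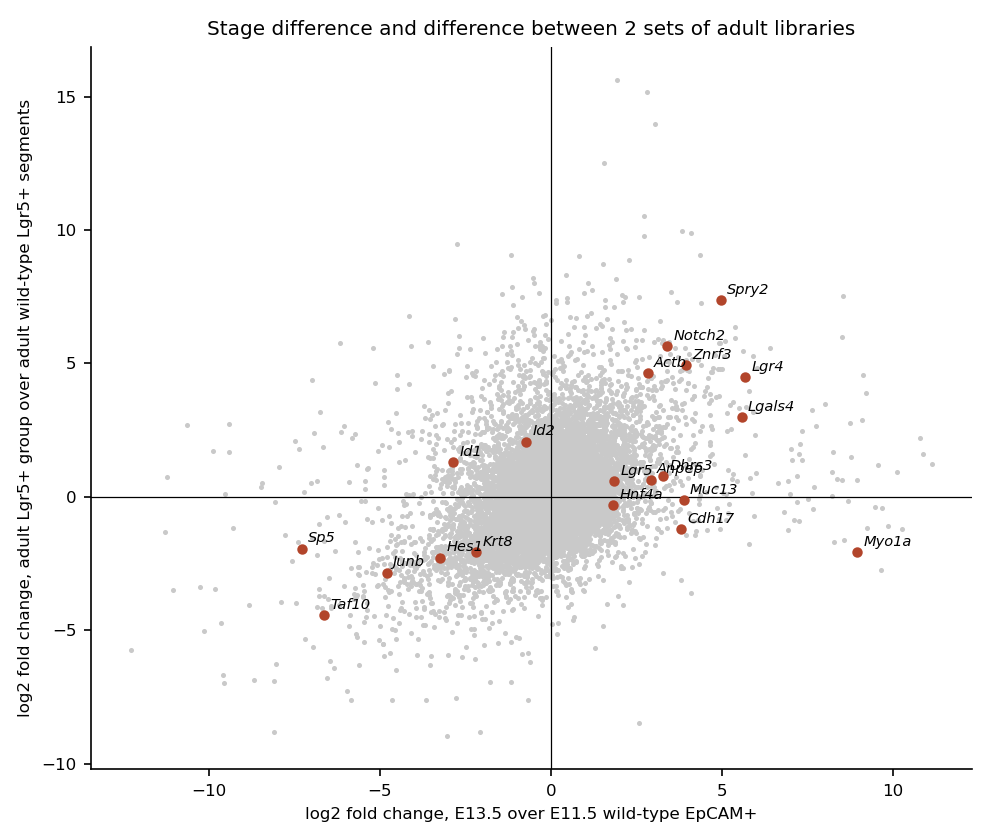
Each point is a gene, with its log2 fold change of E13.5 over E11.5 wild-type EpCAM+ cells (x) and of the adult Lgr5-ISC group over the mean of the adult wild-type segments (y). Lgr4 (5.68 and 4.48) and Znrf3 (3.94 and 4.94) lie high on both axes, while Cdh17 (3.81 and -1.22) and Sp5 (-7.28 and -1.94) lie far from the diagonal.

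R-spondin receptor genes were higher at E13.5. Lgr4 had 2326, 2670.4, 4121 and 4089 CPM in the E13.5 libraries, against 79.8, 81.9 and 63.0 CPM in the E11.5 wild-type libraries. Every E13.5 library lay above every E11.5 library, and the change was 5.68 ± 0.29 (log2, SE, adjusted p = 3.1e-08). Lgr4 was also higher in the Lgr5+ groups (2948 ± 610.3 CPM at E13.5 and 87.7 ± 13.4 CPM at E11.5 Id2KO, SD, n = 4 and 3; log2 fold change 5.29 ± 0.24 SE, adjusted p = 4.1e-08) and between the adult sets (4.48 on the log2 scale), with 1594 ± 525 CPM in the adult Lgr5-ISC group (SD, n = 4) against 74.6 to 129 CPM in the 6 segment libraries. The stage difference exceeded the adult one by 1.15 on the log2 scale (adjusted p = 0.01). The EpCAM-negative mesenchyme of E11.5 wild-type embryos had 37.0 ± 6.94 CPM (SD, n = 3).

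Lgr5, the stem cell marker and receptor used for the sort of the other groups, had 24.6, 24.8, 21.6 and 21.4 CPM in the E13.5 libraries, against 10.9, 7.99 and 3.31 CPM in the E11.5 wild-type libraries. The groups did not overlap and the change was 1.86 ± 0.35 (log2, SE, adjusted p = 0.0011), above the adult difference of 0.59 by 1.21 on the log2 scale (adjusted p = 0.0098). In cells sorted for Lgr5 its level was 90.0 ± 4.82 CPM at E13.5 and 103.6 ± 25.9 CPM at E11.5 Id2KO (SD, n = 4 and 3), with a difference of 0.01 ± 0.19 (log2, SE, adjusted p = 0.98). Lgr6 stayed below 0.1 CPM on average at both stages and was not tested. In bulk sorted cells, a larger share of Lgr5+ cells and more Lgr5 RNA per cell cannot be told apart.

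Among the 15 tested members of the receptor list (R-spondin receptors, their ligases, Frizzleds and co-receptors), 6 were higher and 6 lower, with a median of -0.13. Both ligase genes were higher. Znrf3 had 400.3, 319.6, 385 and 336 CPM in the E13.5 libraries, against 28.8, 29.0 and 23.3 CPM in the E11.5 wild-type libraries, with no overlap and a change of 3.94 ± 0.18 (log2, SE, adjusted p = 1.8e-08), which minus the adult difference was -1.03 on the log2 scale (adjusted p = 0.002). Rnf43 had 42.5, 58.3, 42.5 and 36.1 CPM at E13.5, against 29.2, 17.5 and 11 CPM at E11.5, a change of 1.43 ± 0.29 (log2, SE, adjusted p = 0.0018). Of 9 tested Frizzled genes 5 were lower and 2 were higher. Fzd2 had 5.64, 9.55, 9.13 and 8.68 CPM at E13.5, against 48.6, 40.1 and 28.3 CPM at E11.5. All its E13.5 values lay below all E11.5 values (log2 fold change -2.03 ± 0.27 SE, adjusted p = 7.3e-05), beyond an adult difference of -0.23. Fzd4 had 2.63, 3.28, 2.83 and 2.21 CPM at E13.5, against 12.5, 18.8 and 10.2 CPM at E11.5. For Fzd4 the stages did not overlap, and the change was -2.13 ± 0.36 (log2, SE, adjusted p = 0.00052). Fzd3 was higher (118, 93.2, 129.9 and 117 CPM at E13.5, against 73.3, 63.6 and 63.8 CPM at E11.5; log2 fold change 0.98 ± 0.18 SE, adjusted p = 0.00087), and its adult difference was larger, 5.43. The number of lower members was 3 without E11.5 replicate 2 or 3, and 3 with the GC offset.

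Of 16 tested Wnt-responsive genes 3 were higher and 5 lower, with a median of -0.06. Over all tested genes 19.3% were higher and 21.1% lower, with a median of -0.04. Sp5, whose promoter is printed above, had 0.134, 0.0597, 0.133 and 0.0640 CPM in the E13.5 libraries, against 17.1, 18.2 and 19 CPM in the E11.5 wild-type libraries. Each E11.5 library was far above each E13.5 library, and the change was -7.28 ± 0.47 (log2, SE, adjusted p = 1.9e-07). The change was -5.65 with the GC offset and -1.94 between the adult sets. The stage difference minus the adult difference was -5.37 on the log2 scale (adjusted p = 2e-07). Sp5 had 3.35 ± 4.08 CPM in E13.5 Lgr5+ cells and 17.1 ± 1.47 CPM in E11.5 Id2KO Lgr5+ cells (SD, n = 4 and 3; log2 fold change -2.16 ± 0.69 SE, adjusted p = 0.025). With the GC offset the change in that pair was -0.69 (adjusted p = 0.43), and it missed the threshold when any one library other than E13.5 replicate 1 was left out (-2.21 to -1.85). It had 2.04 ± 1.75 CPM in E11.5 Id2KO EpCAM+ cells (SD, n = 3), all below the wild-type values.

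Sox9, a transcription factor gene of epithelial progenitors, had 680.5, 649.9, 826 and 918 CPM at E13.5, against 183, 165 and 162 CPM at E11.5. The E13.5 values were all higher (log2 fold change 2.38 ± 0.18 SE, adjusted p = 7.6e-07), as were those of the adult Lgr5-ISC group (2.13). Ascl2, which encodes a stem cell transcription factor of the crypt, had 7.70, 10.3, 6.6 and 12.3 CPM at E13.5, against 3.08, 3.04 and 3.83 CPM at E11.5, with all E13.5 libraries above all E11.5 libraries (log2 fold change 1.66 ± 0.39 SE, adjusted p = 0.0043; adult difference 0.10). Myc, a growth regulator, had 142, 174, 107 and 82.5 CPM at E13.5, against 82.9, 55.8 and 47.2 CPM at E11.5; the lowest E13.5 value was just under the highest E11.5 value, and the change was 1.23 ± 0.25 (log2, SE, adjusted p = 0.0018). Prox1, a homeobox gene, was lower, with 0.725, 1.52, 1.67 and 3.01 CPM at E13.5, against 11.8, 8.05 and 8.04 CPM at E11.5. Prox1 was lower in every E13.5 library than in any E11.5 library, with a change of -2.21 ± 0.53 (log2, SE, adjusted p = 0.0051). Axin2, a feedback inhibitor of the pathway used as a Wnt readout, had 5.13, 4.39, 4.90 and 6.76 CPM at E13.5, against 4.03, 1.28 and 4.45 CPM at E11.5 and did not pass the test (log2 fold change 0.90 ± 0.53 SE, adjusted p = 0.21). Without E11.5 replicate 3 the number of lower members was 3.

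Wnt ligand and secreted inhibitor genes were lower or did not pass: 6 of 10 tested members were lower and 0 higher, with a median of -1.31. Wnt5a, a ligand of the non-canonical branch, had 2.98, 1.49, 4.47 and 2.43 CPM at E13.5, against 22.9, 33.1 and 23.6 CPM at E11.5; the groups were apart (log2 fold change -3.01 ± 0.39 SE, adjusted p = 5.8e-05). Wnt11, of the same branch, had 0.429, 0.388, 0 and 0.833 CPM at E13.5, against 7.75, 6.74 and 9.10 CPM at E11.5. The change in Wnt11, without overlap of the stages, was -4.05 ± 0.89 (log2, SE, adjusted p = 0.0031). Sfrp5, a secreted Wnt antagonist of the early gut endoderm, had 56.5, 61.3, 50.8 and 58.7 CPM at E13.5, against 176, 209.7 and 193 CPM at E11.5. Its groups did not overlap (log2 fold change -1.57 ± 0.15 SE, adjusted p = 5.2e-06), but with the GC offset the change was -0.45 (adjusted p = 0.052), and the adult difference was -2.56. Sfrp2 had 7.22, 5.08, 9.60 and 12.6 CPM at E13.5, against 28.1, 22.8 and 17.4 CPM at E11.5 (log2 fold change -1.18 ± 0.34 SE, adjusted p = 0.015), and did not pass without E11.5 replicate 1 (-1.05, adjusted p = 0.059). Wnt3a and Wnt7a had 0 counts in all 7 libraries, and a count of 0 allows up to 3 counts per library.

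**Figure D3:**
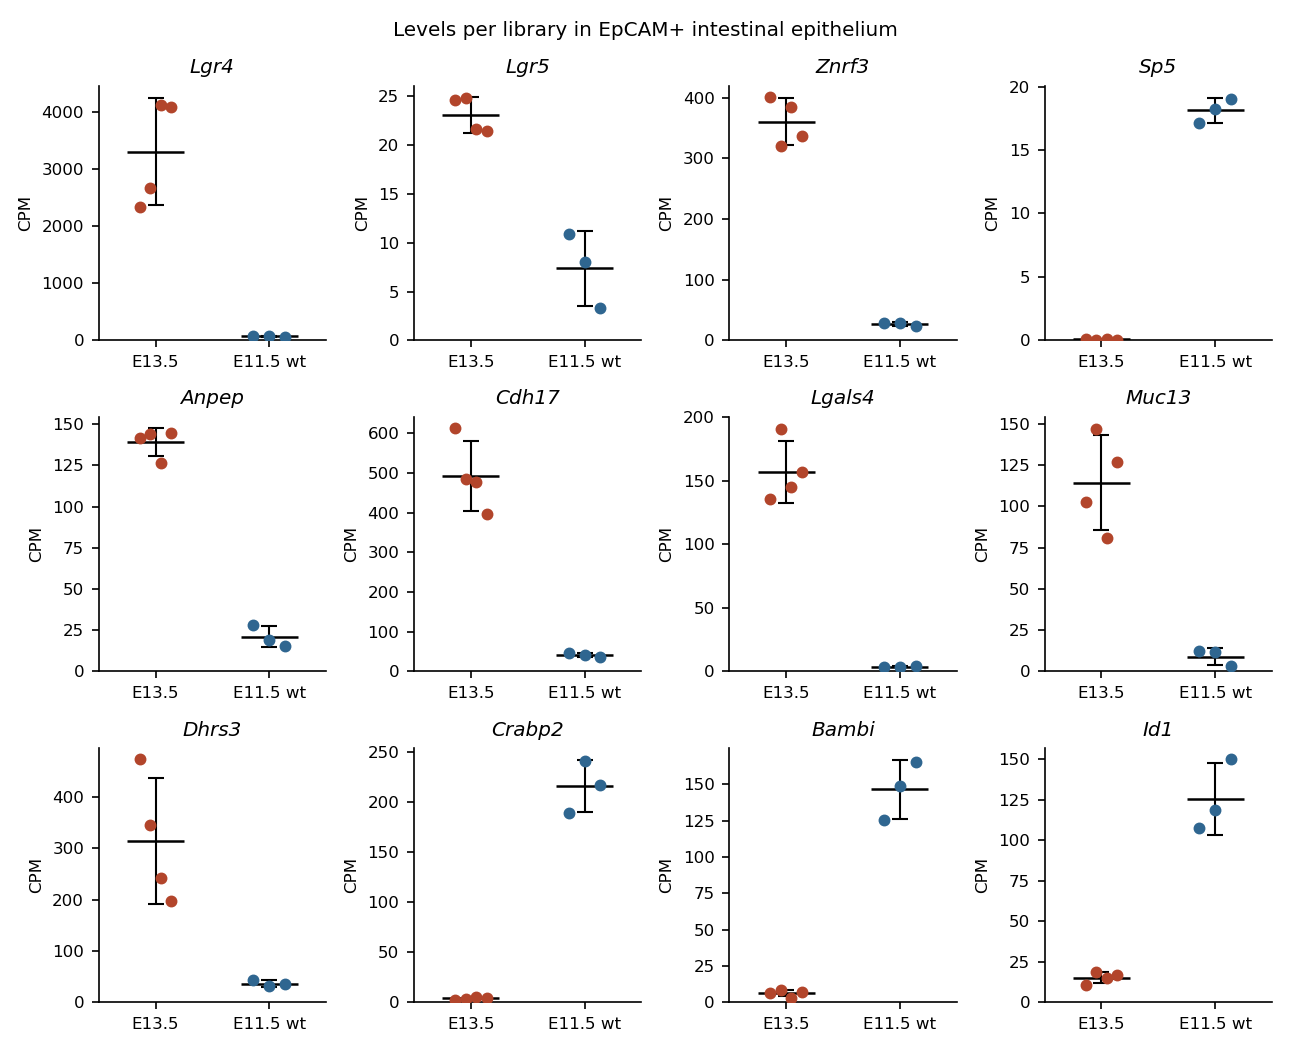
CPM (y, linear, own scale per panel) of 12 genes in each E13.5 EpCAM+ library (left, 4 points) and each E11.5 wild-type EpCAM+ library (right, 3 points), with the mean and SD as bars. Lgr4, Lgr5, Znrf3, Anpep, Cdh17, Lgals4, Muc13 and Dhrs3 were higher in all E13.5 libraries than in any E11.5 library, and Sp5, Crabp2, Bambi and Id1 were lower in all of them.

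Genes of the brush border were higher more often than lower. Of 22 tested members 11 were higher and 1 lower, with a median of 0.91 against -0.04 over all genes. Over all tested genes 19.3% were higher and 21.1% lower. Of the 11, 9 exceeded the adult difference, as did 40.1% of all genes higher at E13.5. Between the adult sets 3 of 25 tested members were higher and 9 lower. A negative adult difference raises the stage difference minus the adult one. Anpep had 142, 144, 126 and 144 CPM in the E13.5 libraries, against 28.3, 19.3 and 15.7 CPM in the E11.5 wild-type libraries. The E13.5 values were close together, with replicate 3 the lowest, and all above the E11.5 values (log2 fold change 2.93 ± 0.21 SE, adjusted p = 4e-07). The adult difference was 0.64 (adjusted p = 0.27), and the stage difference exceeded it by 2.25 on the log2 scale (adjusted p = 0.01). In the Lgr5+ groups Anpep was lower at E13.5, with 57.4 ± 12.1 CPM at E13.5 and 116 ± 45.2 CPM at E11.5 Id2KO (SD, n = 4 and 3; log2 fold change -0.80 ± 0.27 SE, adjusted p = 0.031). The groups overlapped, and the change missed the threshold with the GC offset (-0.72, adjusted p = 0.055) and without E13.5 replicate 2, 3 or 4 or E11.5 replicate 1 or 3 (-0.82 to -0.61). Anpep had 119 ± 53.8 CPM in E11.5 Id2KO EpCAM+ cells (SD, n = 3).

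Other peptidase genes of the list were 5 of 9 higher and 0 lower with Anpep counted. Mep1a, a meprin subunit, had 30.0, 31.2, 16.7 and 14.9 CPM at E13.5, against 0.691, 5.67 and 1.37 CPM at E11.5. For Mep1a the stages did not overlap, and the change was 3.36 ± 0.63 (log2, SE, adjusted p = 0.001). Naaladl1, a dipeptidase, had 9.34, 5.49, 5.70 and 1.22 CPM at E13.5, against 0.518, 0 and 0 CPM at E11.5. Naaladl1 was higher in every E13.5 library than in any E11.5 library, with a change of 5.17 ± 1.31 (log2, SE, adjusted p = 0.0074). Mgam, the starch-digesting maltase-glucoamylase, had 82.4, 116, 99.3 and 134.6 CPM at E13.5, against 14.4, 8.37 and 15.4 CPM at E11.5. The change in Mgam, without overlap of the stages, was 3.28 ± 0.27 (log2, SE, adjusted p = 1.5e-06). Sis, sucrase-isomaltase, had 0, 0.0896, 0.133 and 0.0640 CPM at E13.5, against 0.0288, 0 and 0 CPM at E11.5, and was not tested. Among microvillus structure genes 5 of 10 were higher and 1 lower. Myo1a, the main motor protein of the microvillus, had 10.5, 7.67, 2.57 and 3.46 CPM at E13.5, against 0.0288, 0 and 0 CPM at E11.5; it was near or at 0 in each E11.5 library (log2 fold change 8.95 ± 1.09 SE, adjusted p = 3.5e-05). Myo7b, an intermicrovillar adhesion motor, had 32.8, 49.6, 34.6 and 40.0 CPM at E13.5, against 6.71, 6.39 and 5.06 CPM at E11.5. For Myo7b the stages did not overlap, and the change was 2.89 ± 0.24 (log2, SE, adjusted p = 1.6e-06). Pls1, an actin bundler, had 132, 157, 199.7 and 188 CPM at E13.5, against 55.2, 69.2 and 54.1 CPM at E11.5. Pls1 was higher in every E13.5 library than in any E11.5 library, with a change of 1.71 ± 0.20 (log2, SE, adjusted p = 2.9e-05). Vil1, encoding villin, had 105, 103, 66.9 and 64.7 CPM at E13.5, against 63.2, 51.1 and 34.1 CPM at E11.5. The change in Vil1, without overlap of the stages, was 0.98 ± 0.23 (log2, SE, adjusted p = 0.0052). The lower member was Espn, another actin bundler, with 1.5, 2.54, 2.77 and 1.83 CPM at E13.5, against 79.2, 74.4 and 69.3 CPM at E11.5 (log2 fold change -4.90 ± 0.26 SE, adjusted p = 4.7e-08); its adult difference was also negative, -3.28. Without E13.5 replicate 2 or 3 the number of lower members was 2.

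Genes of nutrient uptake were also higher more often than lower: 7 of 14 tested members were higher and 1 lower (median 1.0). Of the 7, 5 exceeded the adult difference, as did 40.1% of all genes higher at E13.5. Between the adult sets 2 of 18 tested members were higher and 6 lower, and a negative adult difference raises the stage difference minus the adult one. Slc7a7, a basolateral amino acid exchanger subunit, had 63.3, 49.9, 82.7 and 75.0 CPM at E13.5, against 15.9, 11.4 and 16.1 CPM at E11.5. For Slc7a7 the stages did not overlap, and the change was 2.43 ± 0.25 (log2, SE, adjusted p = 9.9e-06). Slc7a9, its apical counterpart for cystine, had 16.8, 34.5, 27.8 and 21.9 CPM at E13.5, against 2.79, 8.46 and 3.74 CPM at E11.5. Slc7a9 was higher in every E13.5 library than in any E11.5 library, with a change of 2.53 ± 0.41 (log2, SE, adjusted p = 0.00039). Both genes had all E13.5 values above all E11.5 values, and their adult differences were 0.12 and -0.43. Slc40a1, the iron exporter ferroportin, had 587, 329.6, 372 and 460.1 CPM at E13.5, against 205, 197 and 165 CPM at E11.5. The change in Slc40a1, without overlap of the stages, was 1.42 ± 0.20 (log2, SE, adjusted p = 0.00015). Heph, the ferroxidase that works with ferroportin, had 51.7, 47.5, 51.5 and 58.9 CPM at E13.5, against 16.2, 17.3 and 5.85 CPM at E11.5. For Heph the stages did not overlap, and the change was 2.22 ± 0.32 (log2, SE, adjusted p = 0.00014). Slc5a1, the apical sodium-glucose transporter, had 26.5, 22.4, 16.9 and 12.4 CPM at E13.5, against 2.53, 7.65 and 10.3 CPM at E11.5. Slc5a1 was higher in every E13.5 library than in any E11.5 library, with a change of 1.69 ± 0.45 (log2, SE, adjusted p = 0.01). Dab2, an endocytic adaptor, was the lower member, with 28.9, 22.8, 42.3 and 31.5 CPM at E13.5, against 187, 78.3 and 51.4 CPM at E11.5; E11.5 replicate 1 was above the other two (log2 fold change -1.51 ± 0.36 SE, adjusted p = 0.0048). Leucocyte markers had the same order in the E11.5 libraries, with sums of 1073, 232 and 107 CPM. The part of leucocytes in the Dab2 difference was not tested. In a fit of 5 embryonic epithelial groups Dab2 missed the threshold (-1.52, adjusted p = 0.076), and 0 members were lower.

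Of 20 tested lipid genes 4 were higher and 7 lower, with a median of -0.05. The fatty acid binding proteins of absorptive cells were higher: Fabp1 had 137, 186, 203 and 249.1 CPM at E13.5, against 34.8, 54.6 and 61.7 CPM at E11.5 (log2 fold change 2.14 ± 0.27 SE, adjusted p = 4.3e-05) and Fabp2 had 183, 307, 326 and 345 CPM at E13.5, against 62.3, 73.4 and 96.1 CPM at E11.5. The change in Fabp2, without overlap of the stages, was 2.10 ± 0.26 (log2, SE, adjusted p = 3.6e-05). For both, the groups did not overlap, and the adult differences were of like size, 2.50 and 2.45. Mogat2, which re-esterifies absorbed lipid, had 70.1, 52.2, 27.8 and 27.2 CPM at E13.5, against 8.64, 12.1 and 16.4 CPM at E11.5. For Mogat2 the stages did not overlap, and the change was 2.01 ± 0.37 (log2, SE, adjusted p = 0.00085), and its adult difference was -1.50. Of 7 apolipoprotein genes 4 were lower and 3 did not pass, and with the GC offset 2 were lower, Apoa1 and Apoa4 missing the threshold. Both retinol binding protein genes of the list, Rbp2 and Rbp4, were lower. Apoe, the apolipoprotein E gene, had 5.29, 5.19, 1.90 and 6.92 CPM at E13.5, against 401, 166 and 123 CPM at E11.5; its highest E11.5 value was in replicate 1, and no E13.5 library came near the lowest (log2 fold change -5.36 ± 0.45 SE, adjusted p = 1.5e-06). The E11.5 values of Apoe had the same order as the sums of leucocyte markers in those libraries (1073, 232 and 107 CPM). The part of leucocytes in the Apoe difference was not tested. Rbp4, the plasma retinol carrier, had 281, 215, 227 and 362 CPM at E13.5, against 1055, 1252 and 1687 CPM at E11.5. Rbp4 was lower in every E13.5 library than in any E11.5 library, with a change of -2.10 ± 0.23 (log2, SE, adjusted p = 1.4e-05).

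**Figure D4:**
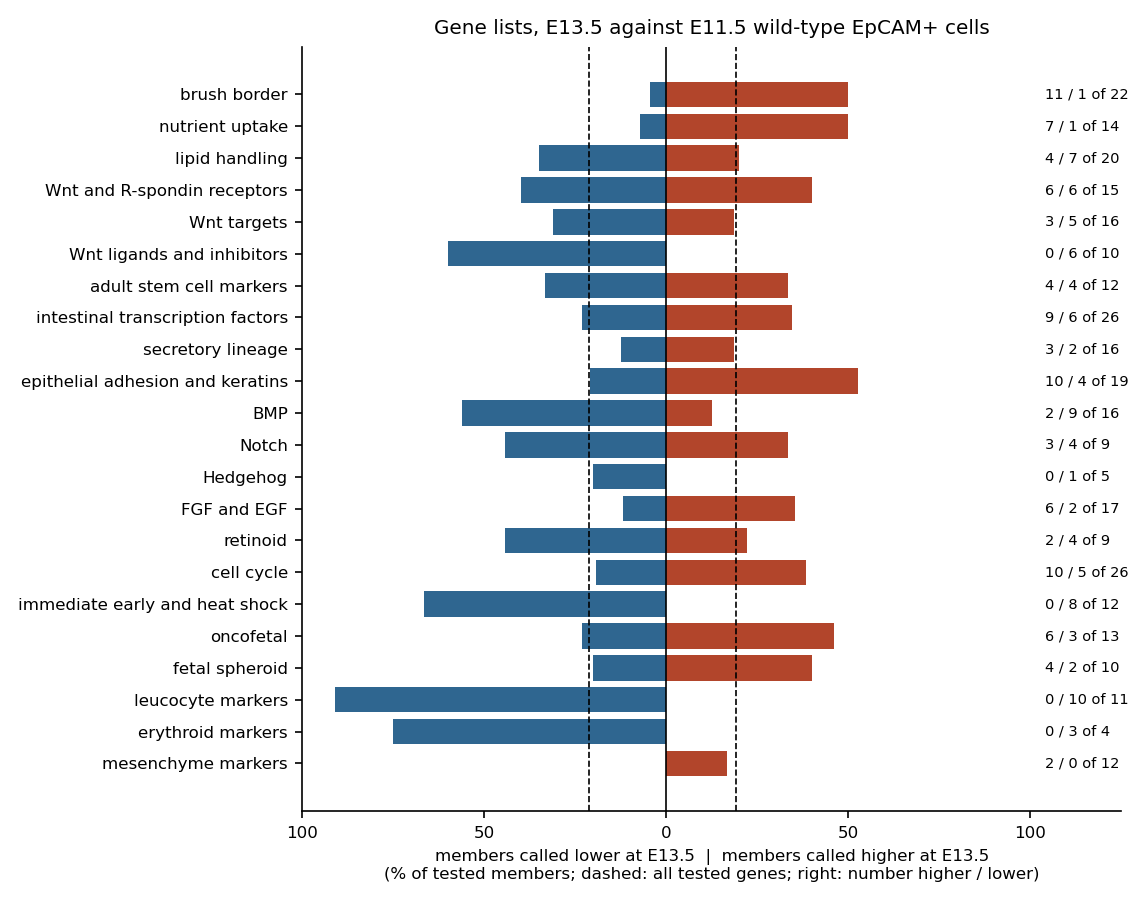
Percentage of the tested members of each gene list (y) called lower (left bars) and higher (right bars) at E13.5 against E11.5 wild-type EpCAM+ cells, with the numbers higher and lower at the right edge; dashed lines mark the shares over all 14467 tested genes, 21.1% lower and 19.3% higher. The brush border (11 higher, 1 lower of 22) leans right, and the leucocyte (0 and 10 of 11) and immediate early (0 and 8 of 12) lists lean left. Leucocyte genes were near 0 at E13.5, so tested members of that list could hardly be called other than lower.

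Of the 19 epithelial adhesion, claudin and keratin genes 10 were higher and 4 lower (median 0.86), and 7 of the 10 exceeded the adult difference. Of all genes higher at E13.5, 40.1% exceeded it. Between the adult sets 5 of the 19 were higher and 9 lower, and a negative adult difference raises the stage difference minus the adult one. Epcam itself, the sort marker, had 991, 906, 914 and 917 CPM at E13.5, against 1471, 1568 and 1558 CPM at E11.5. The change in Epcam, without overlap of the stages, was -0.52 ± 0.14 (log2, SE, adjusted p = 0.0089). Cdh17, liver-intestine cadherin, had 613, 485, 478 and 398 CPM in the E13.5 libraries, against 45.9, 40.2 and 35.6 CPM in the E11.5 wild-type libraries. Every E13.5 library was far above every E11.5 library (log2 fold change 3.81 ± 0.19 SE, adjusted p = 3.1e-08), and the adult difference had the opposite sign (-1.22). Lgals4, a galectin of the intestinal surface, had 136, 191, 145 and 157 CPM in the E13.5 libraries, against 3.60, 3.45 and 4.21 CPM in the E11.5 wild-type libraries, likewise without overlap (log2 fold change 5.58 ± 0.22 SE, adjusted p = 8.5e-09); it exceeded an adult difference of 2.97 by 2.57 on the log2 scale (adjusted p = 1.1e-07). Cdh1, E-cadherin, had 276, 268, 229 and 267 CPM at E13.5, against 131, 112 and 98.5 CPM at E11.5 (log2 fold change 1.39 ± 0.15 SE, adjusted p = 1.3e-05), and its adult difference did not pass (adjusted p = 0.99). Cldn8, a tight junction claudin, had 316, 252, 255 and 279 CPM at E13.5, against 57.7, 65.0 and 70.7 CPM at E11.5. For Cldn8 the stages did not overlap, and the change was 2.29 ± 0.17 (log2, SE, adjusted p = 7.1e-07). Among keratins, Krt8 was lower in all E13.5 libraries, with 147, 156, 127 and 149.9 CPM at E13.5, against 654, 746 and 835 CPM at E11.5 (log2 fold change -2.17 ± 0.15 SE, adjusted p = 4e-07), and the adult difference was nearly the same (-2.08). Krt20, a keratin of differentiated enterocytes, had 238, 90.0, 123 and 102 CPM at E13.5, against 56.0, 49.1 and 58.5 CPM at E11.5. Krt20 was higher in every E13.5 library than in any E11.5 library, with a change of 1.54 ± 0.31 (log2, SE, adjusted p = 0.0015).

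Of 26 tested transcription factor genes of the intestine 9 were higher and 6 lower, with a median of 0.39. Of the 9, 7 exceeded the adult difference, as did 40.1% of all genes higher at E13.5. Between the adult sets 8 of 27 tested members were higher and 11 lower, and a negative adult difference raises the stage difference minus the adult one. Hnf4a, a master regulator of enterocyte genes, had 78.7, 83.3, 63.8 and 76.5 CPM at E13.5, against 32.0, 18.2 and 23.3 CPM at E11.5; all E13.5 values were above all E11.5 values (log2 fold change 1.82 ± 0.21 SE, adjusted p = 2.6e-05; adult difference -0.31). Its paralog Hnf4g had 138, 107, 152 and 174 CPM at E13.5, against 72.7, 44.0 and 72.9 CPM at E11.5. The change in Hnf4g, without overlap of the stages, was 1.38 ± 0.24 (log2, SE, adjusted p = 0.00061). Elf3, an epithelial ETS factor, had 529.7, 434, 302 and 291 CPM at E13.5, against 80.0, 93.3 and 91.0 CPM at E11.5. For Elf3 the stages did not overlap, and the change was 2.33 ± 0.22 (log2, SE, adjusted p = 4.2e-06). Gata6, an endodermal GATA factor, had 138, 186, 170.3 and 192 CPM at E13.5, against 75.7, 61.8 and 70.9 CPM at E11.5. Gata6 was higher in every E13.5 library than in any E11.5 library, with a change of 1.5 ± 0.17 (log2, SE, adjusted p = 2.5e-05). Onecut2, a duodenal factor, had 338, 381, 509 and 466 CPM at E13.5, against 148, 173 and 168 CPM at E11.5 (log2 fold change 1.58 ± 0.19 SE, adjusted p = 3.7e-05), beside a larger adult difference of 2.91. The bile acid receptor gene Nr1h4 had 36.8, 48.5, 36.9 and 52.6 CPM at E13.5, against 5.21, 3.51 and 10.2 CPM at E11.5. The change in Nr1h4, without overlap of the stages, was 2.97 ± 0.37 (log2, SE, adjusted p = 4e-05). Osr2 was lower, with 73.3, 65.4, 59.1 and 55.2 CPM at E13.5, against 255, 243 and 231 CPM at E11.5. For Osr2 the stages did not overlap, and the change was -1.74 ± 0.15 (log2, SE, adjusted p = 2.1e-06). Cdx2, the homeobox gene that sets intestinal identity, had 3.68, 4.69, 2.27 and 3.49 CPM at E13.5, against 20.5, 13 and 12.1 CPM at E11.5 (log2 fold change -1.91 ± 0.35 SE, adjusted p = 0.00096), while its adult difference was -4.59, larger and of the same sign. Of 5 tested foregut genes 3 were higher. Cldn18, a claudin of stomach and lung, had 11, 16.9, 20.6 and 20.4 CPM at E13.5, against 1.99, 1.72 and 2.93 CPM at E11.5 (log2 fold change 3.15 ± 0.39 SE, adjusted p = 3.8e-05; 3.15 and adjusted p = 0.072 in a fit of 5 embryonic epithelial groups); Sox2 had 0, 0.119, 0 and 0.544 CPM at E13.5, against 0, 1.25 and 0.0293 CPM at E11.5 and was not tested. The foregut count was 1 in 4 of the 7 fits that left out a library (E13.5 replicate 2 or 3, E11.5 replicate 1 or 2).

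Secretory cell genes were mostly at low counts, and 16 of 32 could be tested: 3 were higher and 2 lower. Over all tested genes 19.3% were higher and 21.1% lower. Muc13, a transmembrane mucin of goblet cells and enterocytes, had 103, 147, 80.9 and 127 CPM at E13.5, against 12.3, 11.6 and 3.01 CPM at E11.5; every E13.5 value was far above every E11.5 value (log2 fold change 3.88 ± 0.41 SE, adjusted p = 1.2e-05), with an adult difference of -0.14. Agr2, a goblet cell disulfide isomerase, had 11.4, 22.8, 42.7 and 37.8 CPM at E13.5, against 6.02, 1.82 and 14.2 CPM at E11.5; the groups overlapped (log2 fold change 2.15 ± 0.62 SE, adjusted p = 0.015), and the change missed the threshold without E11.5 replicate 1 (1.97, adjusted p = 0.062). Tff3, a goblet cell trefoil peptide, was lower, with 7.09, 18.6, 13.9 and 22.4 CPM at E13.5, against 40.5, 45.6 and 50.9 CPM at E11.5. Tff3 was lower in every E13.5 library than in any E11.5 library, with a change of -1.37 ± 0.32 (log2, SE, adjusted p = 0.0049). The progenitor factor gene Atoh1 had 0.886, 0.0299, 0 and 0 CPM at E13.5, against 0 CPM in each library at E11.5, and the endocrine progenitor gene Neurog3 had 0, 0.0896, 0 and 0 CPM at E13.5, against 0, 0.783 and 0 CPM at E11.5. Neither was tested. The second lower member, Ghrl, missed the threshold in each of the 3 fits without an E11.5 library. Fcgbp, the remaining higher member, missed it without E13.5 replicate 1, 2, 3 or 4 or E11.5 replicate 3. With no filter on low counts 1 member was higher.

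Of 12 markers of adult crypt stem cells 4 were higher and 4 lower. Soat1, a cholesterol esterifying enzyme, had 319, 212, 283 and 258 CPM at E13.5, against 91.8, 53.3 and 76.2 CPM at E11.5 (log2 fold change 2.07 ± 0.22 SE, adjusted p = 1.3e-05), with an adult difference of 0.22. Olfm4, a secreted stem cell marker, was low at both stages and higher at E13.5, with 3.38, 5.73, 6.47 and 4.68 CPM at E13.5, against 0.720, 0.846 and 1.14 CPM at E11.5. The change in Olfm4, without overlap of the stages, was 2.68 ± 0.59 (log2, SE, adjusted p = 0.0031), and it missed the threshold in a fit of 5 embryonic epithelial groups (2.67, adjusted p = 0.063). Slc12a2, an ion cotransporter, had 102, 122, 124 and 109 CPM at E13.5, against 60.4, 75.2 and 78.2 CPM at E11.5. For Slc12a2 the stages did not overlap, and the change was 0.87 ± 0.18 (log2, SE, adjusted p = 0.0017; 0.45 and adjusted p = 0.058 with GC and length offsets). Hopx, a homeodomain-like gene, was lower, with 10.1, 50.7, 16.3 and 13.1 CPM at E13.5, against 178, 175 and 208 CPM at E11.5; E13.5 replicate 2 stood above the other three (log2 fold change -2.89 ± 0.43 SE, adjusted p = 0.00021). Msi1, an RNA-binding protein gene, had 0.0537, 0.0299, 0 and 0 CPM at E13.5, against 2.07, 0.846 and 0.819 CPM at E11.5. Msi1 was lower in every E13.5 library than in any E11.5 library, with a change of -5.42 ± 1.44 (log2, SE, adjusted p = 0.0093), but it missed the threshold without E11.5 replicate 1 (-4.90, adjusted p = 0.059). The number lower was 1 without E11.5 replicate 1, and 2 without E11.5 replicate 2 or E13.5 replicate 3.

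The BMP list had 9 of 16 tested members lower and 2 higher, with a median of -0.85. All 6 target genes were lower, 4 of them also with the GC offset, and 3 of the 6 were beyond the adult difference. Of all genes lower at E13.5, 31.5% were beyond it. Between the adult sets 3 of the 6 target genes were higher and 0 lower. A positive adult difference lowers the stage difference minus the adult one. Of the 9 lower members of the list 6 were also lower with the GC offset. Id1, which encodes an inhibitor of helix-loop-helix factors induced by BMP, had 10.7, 19, 15.1 and 16.7 CPM in the E13.5 libraries, against 108, 119 and 149.99 CPM in the E11.5 wild-type libraries. The groups were far apart (log2 fold change -2.84 ± 0.23 SE, adjusted p = 1.1e-06), and the adult difference had the opposite sign (1.29). Id3 had 59.0, 50.9, 49.6 and 58.5 CPM at E13.5, against 227, 315 and 309.5 CPM at E11.5. The change in Id3, without overlap of the stages, was -2.19 ± 0.18 (log2, SE, adjusted p = 1.2e-06), and its adult difference was 1.74. Id2 had 3097, 2389, 3477 and 3722 CPM at E13.5, against 5308, 5974 and 6600.0 CPM at E11.5. Its E13.5 values were lower in every library (log2 fold change -0.71 ± 0.19 SE, adjusted p = 0.01), but not called without E11.5 replicate 3 (-0.59, adjusted p = 0.057). The Lgr5+ pair gave a change of 4.77 ± 0.19 (log2, SE, adjusted p = 2.6e-08) for Id2, where the E11.5 libraries carry its knockout. Bambi, a pseudoreceptor that dampens BMP, had 6.74, 8.30, 3.20 and 7.17 CPM at E13.5, against 125.2, 149 and 166 CPM at E11.5. For Bambi the stages did not overlap, and the change was -4.34 ± 0.28 (log2, SE, adjusted p = 1.9e-07). Its adult difference was of the same sign, -2.02. Nog, the secreted antagonist noggin, had 0.0268, 0.0299, 0 and 0.128 CPM at E13.5, against 5.76, 5.42 and 5.56 CPM at E11.5. Nog was lower in every E13.5 library than in any E11.5 library, with a change of -6.62 ± 0.99 (log2, SE, adjusted p = 0.00019). Bmp2, a ligand gene, was higher, with 15.8, 15.7, 15.2 and 8.93 CPM at E13.5, against 4.98, 4.04 and 3.45 CPM at E11.5. The change in Bmp2, without overlap of the stages, was 1.94 ± 0.34 (log2, SE, adjusted p = 0.0006). Without E11.5 replicate 3 the number of lower members was 5.

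Of 5 Notch receptor and ligand genes 3 were higher and 1 lower. Of 4 tested genes of the Hes, Hey and Nrarp group 0 were higher and 3 lower. The lower receptor gene, Notch3, had a log2 fold change of -0.89 (adjusted p = 0.028), and 0.02 with the GC offset. The receptor gene Notch1 had 34.0, 45.4, 41.7 and 35.8 CPM at E13.5, against 7.46, 13.6 and 5.44 CPM at E11.5 (log2 fold change 2.35 ± 0.31 SE, adjusted p = 6.8e-05), Notch2 had 177, 159.6, 315 and 286 CPM at E13.5, against 35.8, 22.2 and 19.2 CPM at E11.5 (log2 fold change 3.41 ± 0.32 SE, adjusted p = 3.9e-06), and the ligand gene Jag1 had 17.7, 10.8, 30.0 and 35.5 CPM at E13.5, against 4.26, 4.83 and 5.47 CPM at E11.5. For Jag1 the stages did not overlap, and the change was 2.49 ± 0.42 (log2, SE, adjusted p = 0.00052). Notch1, Notch2 and Jag1 were higher without overlap, and all 3 were also higher in the adult Lgr5-ISC group, by 2.50, 5.64 and 4.02. The target Hes1, a repressor of secretory fate, had 18.2, 23.6, 34.2 and 34.7 CPM at E13.5, against 269, 288 and 334 CPM at E11.5; the groups did not overlap (log2 fold change -3.22 ± 0.25 SE, adjusted p = 7.7e-07), and the adult difference was -2.28. Hes6, counted here by gene family and not as a readout of Notch, had 16.3, 13.2, 7.90 and 13.3 CPM at E13.5. At E11.5 it had 97.8, 78.9 and 98.5 CPM. Hes6 was lower in every E13.5 library than in any E11.5 library, with a change of -2.66 ± 0.24 (log2, SE, adjusted p = 2.5e-06). In all, 3 of 9 genes of the Notch list were higher and 4 lower, and 2 were lower without E11.5 replicate 1 or 2 or E13.5 replicate 3.

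Hedgehog ligands come from the epithelium at these stages and act on the mesenchyme. Shh had 78.7, 79.1, 93.7 and 95.0 CPM at E13.5, against 98.2, 86.8 and 105 CPM at E11.5; the values overlapped and the change was 0.04 ± 0.17 (log2, SE, adjusted p = 0.87). Ihh had 38.0, 54.7, 34.7 and 45 CPM at E13.5, against 134, 103 and 114 CPM at E11.5, lower in every E13.5 library (log2 fold change -1.25 ± 0.18 SE, adjusted p = 0.00017), but its transcript has a GC content of 62.3%, and with the GC offset the change was 0.45, of opposite sign; the adult difference was -2.71. Over all tested genes above 62% GC the offset still left a median log2 fold change of -1.16. Receptor and response genes of the pathway (Ptch1, Smo and Gli3 tested) did not pass.

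Growth factor genes included 6 higher and 2 lower of 17, and 1 lower without E13.5 replicate 3 or E11.5 replicate 1 or 2. Spry2, a feedback inhibitor of receptor tyrosine kinases, had 178, 130.0, 271 and 296 CPM at E13.5, against 5.41, 8.74 and 9.80 CPM at E11.5; there was no overlap (log2 fold change 4.98 ± 0.38 SE, adjusted p = 6.7e-07), and the adult difference was larger, 7.38. Btc, an EGF family ligand, had 9.29, 19.2, 15.1 and 12.4 CPM at E13.5, against 1.87, 2.22 and 1.73 CPM at E11.5. The change in Btc, without overlap of the stages, was 3.04 ± 0.37 (log2, SE, adjusted p = 3.9e-05), and its adult difference was 0.13. Fgf9, a ligand that acts on gut mesenchyme, had 65.0, 80.1, 58.8 and 74.2 CPM at E13.5, against 30.3, 33.7 and 25 CPM at E11.5. For Fgf9 the stages did not overlap, and the change was 1.43 ± 0.18 (log2, SE, adjusted p = 6.1e-05). Erbb3, an EGF family receptor, had 13.3, 17.2, 16.1 and 7.94 CPM at E13.5, against 6.54, 5.01 and 4.10 CPM at E11.5. Erbb3 was higher in every E13.5 library than in any E11.5 library, with a change of 1.59 ± 0.35 (log2, SE, adjusted p = 0.0033). Egfr had 9.21, 7.46, 13.8 and 10.8 CPM at E13.5, against 1.99, 2.57 and 0.176 CPM at E11.5. The change in Egfr, without overlap of the stages, was 2.94 ± 0.68 (log2, SE, adjusted p = 0.0043). Etv5, an FGF-responsive ETS factor, was lower, with 2.23, 5.05, 1.03 and 0.833 CPM at E13.5, against 14, 14.5 and 12.3 CPM at E11.5. For Etv5 the stages did not overlap, and the change was -2.40 ± 0.54 (log2, SE, adjusted p = 0.0037).

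Of 9 tested retinoid genes 2 were higher and 4 lower at E13.5. Dhrs3, which turns retinal back to retinol and is induced by retinoic acid, had 473, 346, 242 and 197 CPM in the E13.5 libraries, against 43.9, 31.1 and 35.0 CPM in the E11.5 wild-type libraries, all E13.5 values being higher (log2 fold change 3.29 ± 0.29 SE, adjusted p = 2e-06), above an adult difference of 0.79. Crabp2, a cytoplasmic retinoic acid carrier, had 2.76, 3.67, 5.57 and 4.71 CPM in the E13.5 libraries, against 189, 242 and 217 CPM in the E11.5 wild-type libraries, with the groups far apart (log2 fold change -5.49 ± 0.27 SE, adjusted p = 2.5e-08). Rarb, a receptor gene induced by retinoic acid, had 14.7, 9.05, 16.1 and 22.2 CPM at E13.5, against 106, 132 and 99.8 CPM at E11.5 (log2 fold change -2.65 ± 0.28 SE, adjusted p = 9.7e-06), and its adult difference was of the opposite sign, 3.06. Aldh1a2, a synthesising enzyme, had 0.268, 0.119, 1.23 and 0.352 CPM at E13.5, against 7.55, 7.02 and 11.7 CPM at E11.5. Aldh1a2 was lower in every E13.5 library than in any E11.5 library, with a change of -3.93 ± 0.77 (log2, SE, adjusted p = 0.0014). Cyp26a1, which breaks retinoic acid down, had 0.0805, 0, 0 and 0 CPM at E13.5, against 14.4, 14.3 and 8.98 CPM at E11.5. The change in Cyp26a1, without overlap of the stages, was -8.73 ± 0.86 (log2, SE, adjusted p = 6.2e-06). In the Lgr5+ pair it was higher at E13.5, with 1.58 ± 1.08 CPM at E13.5 and 0.0766 ± 0.133 CPM at E11.5 Id2KO (SD, n = 4 and 3; log2 fold change 4.49 ± 1.62 SE, adjusted p = 0.043), but it missed the threshold without E13.5 replicate 2 or 4 or E11.5 replicate 1 or 3 (3.93 to 4.44). The number of retinoid genes higher was 1 without E13.5 replicate 4 or E11.5 replicate 2 or 3.

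Of the immediate early and heat shock genes 8 of 12 were lower and 0 higher, with a median of -2.18, and their summed level was 927 to 1256 CPM at E13.5 and 2969 to 3750 CPM at E11.5. Ier2 had 42.6, 41.6, 26.7 and 38.5 CPM at E13.5, against 736, 659 and 665 CPM at E11.5. For Ier2 the stages did not overlap, and the change was -4.01 ± 0.18 (log2, SE, adjusted p = 1.3e-08). Jun had 42.7, 76.7, 59.5 and 61.2 CPM at E13.5, against 703, 628 and 752 CPM at E11.5. Jun was lower in every E13.5 library than in any E11.5 library, with a change of -3.34 ± 0.19 (log2, SE, adjusted p = 8.8e-08). Junb had 7.17, 10.1, 4.73 and 9.35 CPM at E13.5, against 324, 249.7 and 178 CPM at E11.5. The change in Junb, without overlap of the stages, was -4.80 ± 0.27 (log2, SE, adjusted p = 6.1e-08). These were apart in every library, and the adult differences for the 3 genes were -2.60, -1.45 and -2.84. Fos had 371, 242, 392 and 384 CPM at E13.5, against 436, 409 and 382 CPM at E11.5 and did not pass (log2 fold change -0.03 ± 0.19 SE, adjusted p = 0.93).

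Of 26 cell cycle genes 10 were higher and 5 lower (median 0.39). Top2a, a topoisomerase of dividing cells, had 808, 477, 445 and 298 CPM at E13.5, against 196, 187 and 142 CPM at E11.5; all E13.5 values were higher, with replicate 1 the highest (log2 fold change 1.74 ± 0.28 SE, adjusted p = 0.00032). Mki67 had 256, 242, 268 and 203 CPM at E13.5, against 163, 138 and 99.0 CPM at E11.5. For Mki67 the stages did not overlap, and the change was 1.07 ± 0.18 (log2, SE, adjusted p = 0.00052). Ccna2, cyclin A2, was lower, with 59.4, 65.0, 49.8 and 51.7 CPM at E13.5, against 143, 124.8 and 114.8 CPM at E11.5 (log2 fold change -0.98 ± 0.16 SE, adjusted p = 0.00031), as was the replication licensing gene Mcm2, with 93.6, 100.4, 76.7 and 89.9 CPM at E13.5, against 240.3, 247 and 193 CPM at E11.5. Mcm2 was lower in every E13.5 library than in any E11.5 library, with a change of -1.13 ± 0.15 (log2, SE, adjusted p = 7e-05). The inhibitors parted: Cdkn1a (p21) had 38.5, 72.3, 53.1 and 47.4 CPM at E13.5, against 268, 307 and 356 CPM at E11.5. The change in Cdkn1a, without overlap of the stages, was -2.37 ± 0.21 (log2, SE, adjusted p = 2.6e-06). Cdkn1b (p27) had 34.6, 27.0, 42.9 and 47.5 CPM at E13.5, against 4.29, 4.01 and 5.97 CPM at E11.5. For Cdkn1b the stages did not overlap, and the change was 3.20 ± 0.31 (log2, SE, adjusted p = 5.2e-06), and its adult difference was 5.26. The number higher was 6 without E11.5 replicate 2 or 3.

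Genes of fetal growth moved both ways, with 6 of 13 higher and 3 lower. Igf2bp1, an RNA-binding protein of fetal cells, had 153, 165, 144 and 144 CPM at E13.5, against 85.4, 83.8 and 77.8 CPM at E11.5. Igf2bp1 was higher in every E13.5 library than in any E11.5 library, with a change of 1.08 ± 0.14 (log2, SE, adjusted p = 7.9e-05). Hmga2, a fetal chromatin protein gene, had 735, 1090.1, 939 and 849 CPM at E13.5, against 406, 439.7 and 470.5 CPM at E11.5 (log2 fold change 1.24 ± 0.17 SE, adjusted p = 9.1e-05), beside an adult difference of 3.15. Dlk1, an imprinted gene, was lower, with 4.70, 8.51, 3.13 and 4.16 CPM at E13.5, against 161, 106 and 129 CPM at E11.5 (log2 fold change -4.49 ± 0.30 SE, adjusted p = 2.3e-07), as was the imprinted gene Peg3, with 151, 159.9, 196 and 138 CPM at E13.5, against 637, 509 and 347 CPM at E11.5. The change in Peg3, without overlap of the stages, was -1.41 ± 0.20 (log2, SE, adjusted p = 0.00011). Genes known from fetal intestinal spheroids were 4 of 10 higher and 2 lower. Clu, a secreted chaperone, had 317, 352, 275 and 304 CPM at E13.5, against 71.6, 50.4 and 81.7 CPM at E11.5. For Clu the stages did not overlap, and the change was 2.39 ± 0.20 (log2, SE, adjusted p = 1.4e-06). Gja1, a gap junction gene, had 285, 192, 275 and 255 CPM at E13.5, against 75.5, 49.6 and 46.3 CPM at E11.5 (log2 fold change 2.35 ± 0.22 SE, adjusted p = 4e-06). The adult differences were 3.08 and 6.30, and 0 of the 4 exceeded the adult difference. Of all genes higher at E13.5, 40.1% did. Ctgf, a target of the YAP pathway, was lower, with 3.38, 2.12, 3.27 and 5.44 CPM at E13.5, against 99.6, 118 and 93.0 CPM at E11.5 (log2 fold change -4.66 ± 0.30 SE, adjusted p = 1.9e-07), as was Cyr61, of the same pathway, with 603, 632, 525 and 654 CPM at E13.5, against 1569, 1682 and 1582 CPM at E11.5. Cyr61 was lower in every E13.5 library than in any E11.5 library, with a change of -1.22 ± 0.14 (log2, SE, adjusted p = 1.9e-05).

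Markers of other cells were checked in the same libraries. Leucocyte markers were lower at E13.5 in 10 of 11 tested genes, and their summed level was 4.39 to 5.77 CPM at E13.5, with C1qa, C1qc and Lyz2 at 0 in all 4 libraries, and 107 to 1073 CPM at E11.5, highest in replicate 1. Mesenchyme libraries of E11.5 embryos held 4.65 to 13.5 CPM of the same markers. With so little at E13.5, these genes passed the filter on low counts mainly through the E11.5 libraries. A tested member could therefore hardly be called other than lower, and the count of calls adds nothing to the levels. In the Lgr5+ pair 4 of the 12 markers were tested. Erythroid markers summed to 4.37 to 11.2 CPM at E13.5 and 134 to 170 CPM at E11.5, against 222251 to 269135 CPM in the E11.5 mesenchyme libraries; Hbb-y, an embryonic globin, had 1.96, 3.10, 4.40 and 9.22 CPM at E13.5, against 77.8, 84.8 and 96.8 CPM at E11.5. The change in Hbb-y, without overlap of the stages, was -4.01 ± 0.43 (log2, SE, adjusted p = 1.3e-05). Endothelial markers summed to 0.167 to 2.51 CPM at E13.5. At E11.5 they summed to 61.9 CPM in replicate 2, but to 4.03 and 3.95 CPM in replicates 1 and 3. Mesenchyme markers overlapped, with 43.0 to 68.7 CPM at E13.5 and 33.9 to 57.2 CPM at E11.5, compared with 2117 to 3097 CPM in mesenchyme libraries, and 2 of 12 were higher, the smooth muscle genes Acta2 and Tagln. Acta2 had 9.45, 13.1, 12.4 and 13.9 CPM at E13.5, against 5.30, 6.30 and 2.57 CPM at E11.5. For Acta2 the stages did not overlap, and the change was 1.58 ± 0.37 (log2, SE, adjusted p = 0.0045). Tagln missed the threshold without E13.5 replicate 2, 3 or 4 or E11.5 replicate 2 or 3. Neural markers summed to 20.2 to 95.5 CPM at E13.5, highest in replicate 1, and 36.7 to 44.4 CPM at E11.5, with 0 of 7 called (1 higher without E13.5 replicate 3, and 1 lower without E13.5 replicate 4).

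Pancreas markers summed to 8.43 to 27.5 CPM at E13.5, and to 23.3 to 47.8 CPM at E11.5, with 0 of 2 called; without E13.5 replicate 1, Cpa1, a pancreatic carboxypeptidase gene, was lower (-6.26, adjusted p = 0.0023). Liver and yolk sac markers summed to 549 to 683 CPM at E13.5 and 660 to 699 CPM at E11.5 with 0 of 5 called; Alb had 0 CPM in each library at E13.5, against 0, 0.0940 and 0.293 CPM at E11.5. Mesothelial markers summed to 11.9 to 25.5 CPM at E13.5 and 4.15 to 8.67 CPM at E11.5, germ cell markers to 1.10 to 8.93 CPM and 6.02 to 60.3 CPM, and nephric duct markers to 0.767 to 2.88 CPM and 1.02 to 2.07 CPM (1 of 2 higher, and 0 higher without E13.5 replicate 1 or 2 or E11.5 replicate 2 or 3). The germ cell sum of 60.3 CPM was that of E11.5 replicate 2, and replicates 1 and 3 had 6.02 and 6.26 CPM. The part of other cells in the differences above was not tested.

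**Figure D5:**
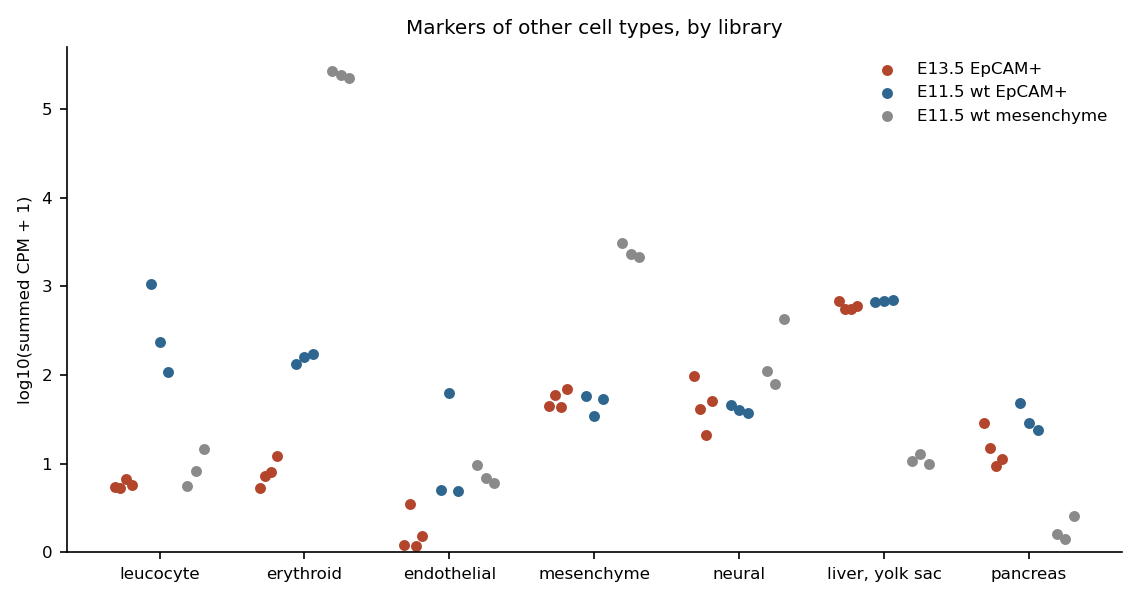
Summed CPM of marker lists of other cell types, as log10(summed CPM + 1) (y, log scale), in each E13.5 EpCAM+, E11.5 wild-type EpCAM+ and E11.5 wild-type mesenchyme library, by list (x). Leucocyte and erythroid markers are lower in all E13.5 libraries than in any E11.5 EpCAM+ library, while mesenchyme markers overlap.

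The 12 largest falls by fitted change were all at 0 in the E13.5 libraries, and most are genes of macrophages and other leucocytes: Ccl3, C1qc, C1qa, Ly86, Ms4a6d, Sfpi1, Lyz2, Fcgr1, Srgn, Clec4a2 and AI607873, with C2cd4b as well. Ccl3, a chemokine gene, had 0 CPM in each library at E13.5, against 223, 39.6 and 38.1 CPM at E11.5. Taking 3 counts per library as the floor, it was at least 1096-fold lower at E13.5, and at least 425-fold without E11.5 replicate 1. C2cd4b had 0 CPM in each library at E13.5, against 15.6, 15.2 and 28.1 CPM at E11.5, at least 214-fold lower at E13.5. It was highest in E11.5 replicate 3, and the GC content of its transcript is 68.9%. The other 11 were highest in E11.5 replicate 1.

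The 12 largest rises were Naip6, Sectm1b, Ccl20, Ms4a18, Eps8l3, Myo1a, Tmprss13, Nlrc4, Cbln2, Tm4sf20, Thrb and Samd9l. Tm4sf20, a transmembrane 4 superfamily gene, had 157, 273, 192 and 206 CPM in the E13.5 libraries, against 1.30, 1.85 and 1.52 CPM in the E11.5 wild-type libraries; all E13.5 values were far above all E11.5 values (log2 fold change 7.25 ± 0.28 SE, adjusted p = 8.3e-09; adult difference 1.58). Nlrc4, an inflammasome sensor gene, had 25.7, 21.8, 14.6 and 26.1 CPM at E13.5, against 0.173, 0.0940 and 0.0878 CPM at E11.5. Nlrc4 was higher in every E13.5 library than in any E11.5 library, with a change of 7.69 ± 0.45 (log2, SE, adjusted p = 9.2e-08). Naip6, of the family of bacterial ligand sensors that act with NLRC4, had 5.58, 3.07, 9.67 and 13.1 CPM at E13.5, against 0 CPM in each library at E11.5, at least 87.9-fold higher at E13.5; its near-identical paralogs make its own count uncertain. Ccl20, a chemokine of the gut epithelium, had 3.03, 7.46, 4.10 and 10.4 CPM at E13.5, against 0 CPM in each library at E11.5, at least 70.0-fold higher. Eps8l3, an actin regulator, had 13.2, 22.9, 8.03 and 15.7 CPM at E13.5, against 0.0576, 0 and 0 CPM at E11.5. The change in Eps8l3, without overlap of the stages, was 9.49 ± 0.77 (log2, SE, adjusted p = 1.1e-06). Thrb, a thyroid hormone receptor gene, had 35.7, 38.7, 37.2 and 29.2 CPM at E13.5, against 0.576, 0.125 and 0.205 CPM at E11.5. For Thrb the stages did not overlap, and the change was 7.04 ± 0.45 (log2, SE, adjusted p = 1.8e-07). Cbln2, a secreted cerebellin, had 82.0, 112, 155 and 153 CPM at E13.5, against 1.12, 0.564 and 0.439 CPM at E11.5. Cbln2 was higher in every E13.5 library than in any E11.5 library, with a change of 7.67 ± 0.40 (log2, SE, adjusted p = 4.1e-08). The rule that picked the 12 asked for no overlap of the stages, so their lack of overlap was fixed by the choice. Of the 11 tested in the adult sets, Tmprss13 had an adult difference nearly as large (7.54). Its stage difference minus the adult difference was 0.60 on the log2 scale (adjusted p = 0.6).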

How the data were processed

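The measurement was poly(A) RNA-seq of 250 sorted cells per library (SMARTer amplification over 15 cycles, single-end reads of 50 bases, per the labels' protocols). Per the submitters' processing notes the authors worked on build mm9 with HTSeq 0.6.1p1 as counter tool and STAR 2.3.1z13 as aligner (DESeq2 1.6.3, bcl2fastq 1.8.4 and SAMtools 1.2 are also listed), and they deposited raw read counts per gene symbol. The 5 category rows of HTSeq were removed, leaving 23366 genes. In the 7 libraries compared first, reads outside annotated genes were 22.8 to 28.7% at E13.5 and 14.5 to 20.4% at E11.5. No libraries were identical. CPM values were plain shares of a library's gene counts. Fold changes came from edgeR 4.0.16 in R 4.3.3 (filterByExpr, TMM scaling, robust quasi-likelihood test, Benjamini-Hochberg adjustment over all tested genes, threshold 0.05), fitted to the compared groups alone. The adult comparison was fitted to the 4 adult groups, and its difference from the stage comparison to these and both stages. The GC offset was a loess curve per library (span 0.4) on the GC content of GENCODE vM21 transcripts, added after the data were seen. Alternatives were DESeq2 1.42.0, no filter, other size factors, a fit of 5 embryonic epithelial groups, a replicate block and fits without each library. Replicate numbers did not pair the libraries. Standard errors rest on the spread between libraries, while limits from a count of 0 cover counting error only, since reads carried no molecular identifiers.

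Genes were named by rule: Lgr4, Lgr5, Anpep, Sp5 and Id2, the 12 largest changes each way among called genes without overlap and with at least 5 CPM in the higher group, and up to 5 genes of each list by smallest p. Other genes named were chosen after their values were seen. Some genes of the lists are not reported here and are left out of the lists. The members and lists were chosen with earlier results of these data known.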

Additional observations from a re-analysis of the deposited data

Results flagged for a closer look

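In the E13.5 EpCAM+ libraries, 150 genes were looked at for a library standing apart from the other three, and chance alone gives about 1 in 20 such groups. Anpep was lowest in replicate 3, at 126 CPM beside 142 CPM in the nearest library, and Bmp2 was lowest in replicate 4, at 8.93 CPM beside 15.2 CPM. Replicate 2 was highest for Hopx (50.7 CPM, the next 16.3 CPM), Fcgbp (15.6 and 11.2 CPM), Anxa1 (92.6 and 44 CPM), Afp (169 and 138 CPM), Esam (1.61 and 0.128 CPM), C1qb (0.448 and 0 CPM) and Prdm14 (0.687 and 0 CPM). Replicate 1 was highest for the pancreatic gene Cpa1 (17.6 and 0.8 CPM), Cyp26a1 (0.0805 and 0 CPM) and Hbb-bh1 (0.0268 and 0 CPM). Nkx6-1 was highest in replicate 3 (0.0333 and 0 CPM) and Tyrobp in replicate 4 (0.0961 and 0 CPM). The values of a few hundredths of a CPM are single reads or a few reads.

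Of the genes named by rule, 2 were called with opposite signs in the 2 pairs of groups without overlap of the stages in either pair. Id2 was 4.77 higher on the log2 scale in E13.5 Lgr5+ cells than in E11.5 Id2KO Lgr5+ cells, and its log2 fold change in EpCAM+ cells was -0.71. Cyp26a1 had 4.49 in the Lgr5+ pair and -8.73 in EpCAM+ cells, and its call in the Lgr5+ pair was lost without E13.5 replicate 2 or 4 or E11.5 replicate 1 or 3. The E11.5 Lgr5+ group carries the Id2 knockout. Id2 is the targeted gene, so its value in the Lgr5+ pair does not describe the stage. For Cyp26a1 stage and genotype cannot be told apart there, and the difference between the pairs was not tested.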

How the results depend on the processing

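The numbers of genes called kept within 1.5 times of those reported under each alternative run. Fits without each library gave 2175 to 2707 genes higher and 2481 to 3104 lower at E13.5, and other alternatives 2485 to 3075 and 2807 to 3305. In the Lgr5+ pair the ranges were 2248 to 2836 and 2425 to 3120 without a library, and 2339 to 3119 and 2535 to 3291 otherwise. With the replicate number as a block, 2653 genes were higher and 2838 lower in EpCAM+ cells, and 2339 and 2535 in Lgr5+ cells; Msi1 in EpCAM+ cells had -5.23 (adjusted p = 0.051). Same-numbered libraries did not deviate together: correlations were 0.11, -0.07 and 0.01, and 0.01, 0.12 and 0.02 in the Lgr5+ pair. Of 164 named genes, 25 changed in some fit without a library and 31 in another alternative.

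Signs turned, with a call on at least one side, for 2 named genes, and the other turns were between values that did not pass the test. Ihh had a log2 fold change of 0.45 with the GC offset, 0.56 with GC and length offsets and 0.42 with the GC offset and the block, and in the Lgr5+ pair 1.2 with the GC offset and 1.34 with both offsets. Its transcript is rich in G and C. Fcgbp in the Lgr5+ pair ranged between -2.32 and 0.47 without single libraries, and the cause was not tested. The GC and length offsets were chosen after seeing the data. Genes near 0 CPM at either stage rest on few reads, so their fold changes are imprecise.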
